A study of Mus musculus with 6 samples.

Results

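The genes described here are 108 cell cycle and DNA replication genes of mouse liver, measured with 160 probes, out of 7151 genes named with 9663 probes. They were chosen by symbol alone: the A, B, D and E cyclins, genes named Cdk, Cdc, Mcm, E2f, Orc, Pola, Pold, Pole, Rfc, Bub, Aurk, Plk, Cenp, Top2 and Smc, and Mki67, Pcna, Lig1, Anln, Rrm1 and Rrm2, with Cdc42 and its relatives left out. Array A and array B, the 2 kinds of expression array used, held 80 of these probes each, and 74 genes had a single probe. Liver RNA came from 3 male mice, 1 in each group. The first was calorie-restricted, that is kept on a reduced food intake, and was killed at 177 days; the second was fed ad libitum and was killed at 174 days. Both belonged to the 2nd age group of the labels. The third, of the 1st age group, was fed ad libitum and was killed at 17 days, an age whose unit rests on its label alone. Strain and the size of the food restriction were not given in the sources used here. Each liver was hybridised once to each kind of array, so no group had a replicate. There is therefore no p-value and no standard error, and what is reported below describes these 3 animals without a replicate check.

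The cell cycle runs from G1 through DNA synthesis in S phase to mitosis, and cyclins with their cyclin-dependent kinases drive the steps. E2F transcription factors switch on genes for DNA replication at the end of G1, and a later wave of genes builds the spindle, the kinetochores and the condensed chromosomes of mitosis. Hepatocytes of a resting adult liver rarely divide, while those of a young, growing liver divide often, so transcripts of these genes are known as markers of proliferation. The members fell into 29 S phase genes, 40 mitotic genes, 11 genes of G1 and the E2F family, and 8 genes of the cohesin, SMC, TOP2B and PLK families. A further 20 genes, matched by name, were placed in none of these groups.

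The promoters of the 5 genes that differed at least 2-fold in some comparison are shown first, because the same short motifs are known from E2F-driven and mitotic genes. A promoter window ran from 250 bases before to 50 bases after a gene's start, from RefSeq on GRCm38.p6, and 96 of the 108 genes had one. Motifs were searched on both strands: the E2F words TTTCGCGC, TTTGGCGC, TTTCCCGC and TTTGCCGC, the cell cycle homology region CHR as TTTGAA or TTTAAA, the CCAAT box as CCAAT, and the TATA box as TATAAA. Capitals below mark E2F, CHR and CCAAT matches, 0 bases of which belonged to more than 1 motif. The windows were chr10:69352863-69353162 on the minus strand for Cdk1, chr9:22389157-22389456 on the minus strand for Anln, chr7:48881547-48881846 on the minus strand for E2f8, chr15:85131908-85132207 on the minus strand for Smc1b, and chr7:13278576-13278875 on the plus strand for Lig1. Lig1 had 3 windows, and the one shown is the one with an E2F match.
Cdk1: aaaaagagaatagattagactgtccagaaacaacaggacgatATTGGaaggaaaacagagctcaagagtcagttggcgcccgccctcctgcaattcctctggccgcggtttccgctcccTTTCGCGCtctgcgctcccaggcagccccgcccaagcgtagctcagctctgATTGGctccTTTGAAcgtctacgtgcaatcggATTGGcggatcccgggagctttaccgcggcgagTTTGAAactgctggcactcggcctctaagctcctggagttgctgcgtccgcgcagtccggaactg
Anln: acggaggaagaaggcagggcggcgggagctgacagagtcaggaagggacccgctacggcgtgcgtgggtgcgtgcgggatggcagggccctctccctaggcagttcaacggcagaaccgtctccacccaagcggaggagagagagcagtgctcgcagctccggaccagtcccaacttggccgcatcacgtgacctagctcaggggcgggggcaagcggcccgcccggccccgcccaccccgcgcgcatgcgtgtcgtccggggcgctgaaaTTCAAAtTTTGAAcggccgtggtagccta
E2f8: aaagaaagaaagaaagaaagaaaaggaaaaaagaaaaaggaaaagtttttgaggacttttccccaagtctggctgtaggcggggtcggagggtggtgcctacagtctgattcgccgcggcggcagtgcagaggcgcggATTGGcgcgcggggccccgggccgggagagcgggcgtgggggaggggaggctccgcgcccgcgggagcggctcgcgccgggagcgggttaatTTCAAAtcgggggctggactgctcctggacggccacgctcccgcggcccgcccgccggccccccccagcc
Smc1b: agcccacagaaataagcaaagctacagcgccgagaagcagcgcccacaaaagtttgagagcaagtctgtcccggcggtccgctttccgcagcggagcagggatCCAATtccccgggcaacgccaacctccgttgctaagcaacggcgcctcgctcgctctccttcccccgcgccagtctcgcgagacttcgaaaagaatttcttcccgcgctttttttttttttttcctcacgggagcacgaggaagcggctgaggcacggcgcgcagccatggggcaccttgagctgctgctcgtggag
Lig1: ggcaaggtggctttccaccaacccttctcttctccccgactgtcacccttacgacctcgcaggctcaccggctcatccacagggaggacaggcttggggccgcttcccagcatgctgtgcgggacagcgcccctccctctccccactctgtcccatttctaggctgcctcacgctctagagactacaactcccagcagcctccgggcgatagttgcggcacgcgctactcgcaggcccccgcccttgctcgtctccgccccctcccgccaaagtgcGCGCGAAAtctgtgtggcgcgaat
Cdk1 held 1 E2F, 2 CHR and 3 CCAAT matches, and Anln held 2 CHR matches and 0 of the other 2 kinds. E2f8 held 1 CHR and 1 CCAAT match, Smc1b held 1 CCAAT match, and the Lig1 window held 1 E2F match.

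Over the 36 windows of S phase genes, 38.9% held an E2F word, against 2.26% of the 32851 windows of all genes. Of the 39 windows of mitotic genes, 12.8% held an E2F word, 59.0% held a CHR and 71.8% held a CCAAT box. The shares over all windows were 27.6% for the CHR and 37.4% for the CCAAT box. S phase windows held a CHR in 19.4% and a CCAAT box in 55.6%. A TATA box stood in 2.70% of the 111 member windows and in 13.6% of all windows. These matches describe the letters of the windows and not sites in use.

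The deposited values are spot intensities in arbitrary units. On array A the median intensity was 375.0 in the restricted, 35.8 in the 174-day and 364.3 in the 17-day mouse; on array B it was 332.8, 60.8 and 402.5 in the same order. The 174-day ad libitum mouse thus had the dimmest array of both kinds, and it takes part in the diet comparison and, on the opposite side, in the age comparison. Intensities were raised to a floor, the 5th percentile of each array, and quantile-normalised across the 3 mice; all levels below are these normalised intensities unless called raw. Levels are compared between mice and not between probes. Markers of cell types were summed over every probe that entered the comparisons, so a gene with several such probes counts several times. Among the other cell types, these sums were 16149 in the restricted, 14392 in the 174-day and 15855 in the 17-day mouse for 4 of 13 erythroid genes. The erythroid sum was in large part Tfrc, at 10595, 9014 and 10213. Of these 4 genes, 3 were higher in the restricted than in the 174-day mouse and 1, the globin gene Hba-a1, was lower, at 315, 330 and 379. The sums were 8919, 8945 and 10187 for 6 of 11 stellate and endothelial genes. For 1 of 15 leukocyte and Kupffer genes, Lyz2, the levels were 543, 526 and 643, and for 2 of 5 cholangiocyte genes the sums were 436, 585 and 531. The 5 of 14 hepatocyte genes with a probe summed to 33243, 21015 and 24223, in large part Alb, the gene of serum albumin, at 22608, 9990.4 and 12205. The tissue label was thus checked on few defining markers, and the other listed markers were not analysed here. In bulk liver, fewer cells of a type and less RNA per cell cannot be told apart, and the part of other cell types in any difference below was not tested.

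Many cell cycle probes were dim in all 3 livers. A probe entered the comparisons if its level, averaged over the mice, exceeded the median probe of the same array kind, which 75 of the 160 probes did (46.9%, against 46.8% of all named probes), and 60 of the 108 genes had such a probe. The share was 56.1% of 41 S phase probes and 40.0% of 60 mitotic probes. Mitotic probes had a median percentile rank among all spots of their array of 34.0 in the restricted, 32.5 in the 174-day and 30.4 in the 17-day mouse. S phase probes stood at 50.04, 57.2 and 53.3, and all named probes at 46.8, 47.3 and 47.2. Brightness also depends on a probe's own sequence, so the ranks set the mice side by side and not the groups of genes. At the floor, where levels have no order, stood 14 of the 160 member spots in the restricted, 10 in the 174-day and 13 in the 17-day mouse. Of all 9663 named probes, 484, 462 and 466 stood there, in the same order of mice. Mcm8, Plk2, Cdc14a, Cdc16 and 1 probe each of Orc1 and Cenpa were at the floor in all 3.

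Just inside the level limit lay probes of Top2a, Cenpi and Rfc1, each on array B. Top2a stood at the 50.2nd percentile, with a diet difference of -0.15. Cenpi stood at the 50.6th, with -0.59, and Rfc1 at the 51.3rd, with -1.36. Just outside lay Rrm1 at the 49.6th, with 0.31. Because the limit uses the mean over mice, a single high spot could let a probe in. The Cenpi probe ranked at the 45.5th percentile in the restricted, the 57.1st in the 174-day and the 48.3rd in the 17-day mouse. Its entry thus rests on the 174-day spot.

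**Figure D1:**
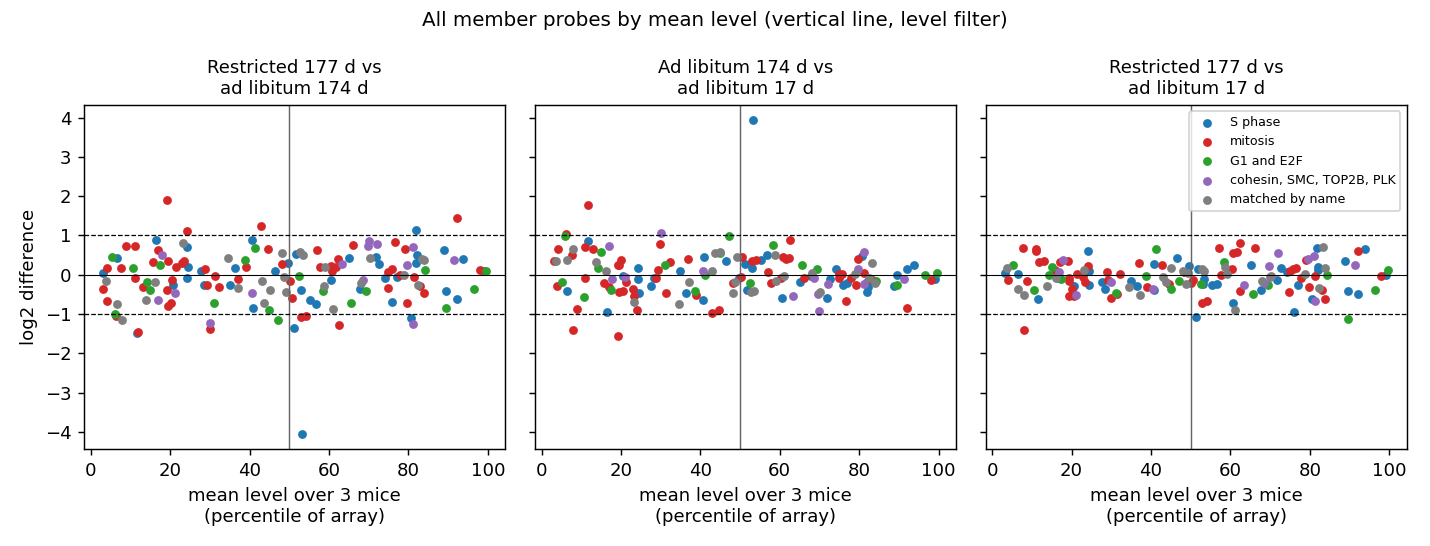
Log2 difference of the member probes not at the floor in both mice of a pair (vertical axis) against its mean level over the 3 mice as a percentile of its array kind (horizontal axis), coloured by role, in 3 panels for the restricted against the 174-day mouse, the 174-day against the 17-day mouse, and the restricted against the 17-day mouse. Dashed lines mark 2-fold, the vertical line marks the limit of 50 that let 75 of 160 probes enter, and the probe farthest from 0 is Lig1 on array A at -4.04 and 3.93.

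The diet comparison set the calorie-restricted 177-day mouse against the ad libitum 174-day mouse and asks how food restriction goes with these transcripts at about the same age. Of the 60 genes, Cdk1 was at least 2-fold higher in the restricted mouse and Anln, Smc1b and Lig1 were at least 2-fold lower. That is 4 of 60, or 6.67%, where 6.86% of all 3865 genes were 2-fold apart, with 2.25% higher and 4.61% lower. The members' share was thus near the background. Median centring of the arrays, in place of quantile normalisation, shifted the median of all genes to -0.31 and gave 0 members higher and 6 lower, where 50 genes of 3869 were higher and 613 lower, 17.1% in all. The median log2 difference of the 60 genes was -0.002, with 29 above 0 and 30 below, against a median of -0.04 over all genes, whose 5th to 95th percentiles ran from -0.98 to 0.84.

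Cdk1, the kinase whose activity starts mitosis, had a level of 1821 in the restricted mouse, against 673 in the 174-day mouse, and 1203 in the 17-day mouse. The restricted liver was the highest of the 3 and the 174-day ad libitum liver the lowest. The log2 difference was 1.44, and it ranged from 0.98 to 1.51 over 11 settings, in 10 of which it was at least 2-fold. Raw intensities were 3295 in the restricted, 159.8 in the 174-day and 2281 in the 17-day mouse. The gene had a single probe, so no second probe bears on it.

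Anln encodes anillin, an actin-binding scaffold of the cleavage furrow in cell division. Its single probe had a level of 122 in the restricted, 258 in the 174-day and 201 in the 17-day mouse, a diet difference of -1.08 that was -0.46 once spot position on the array was corrected for. Smc1b, a cohesin subunit known from meiosis, had levels of 465, 1105 and 735 with its brighter probe (-1.25, and -0.75 with the position correction). Its dimmer probe, which did not enter, gave -0.47. In all of these the 174-day mouse was the highest and the restricted mouse the lowest, apart from the dim Smc1b probe, where the 17-day mouse was the highest.

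Lig1, the DNA ligase that joins Okazaki fragments, had a probe on array A at 71.8 in the restricted mouse and 1179 in the 174-day mouse, with 77.4 in the 17-day mouse. Only the 174-day spot stood apart. Raw intensities of that probe were 161, 304 and 166, where the array medians were 375.0, 35.8 and 364.3. The other Lig1 probe, on array B, had levels of 84.0, 88.6 and 79.2, a diet difference of -0.08 against -4.04 for the first. The array A probe ranked at the 22.5th percentile in the restricted, the 92.1st in the 174-day and the 24.7th in the 17-day mouse, so it passed the level limit only through the spot where it was high, and its place among the 2-fold genes follows from that spot. Without spots that stood apart in 1 mouse, 3 of 59 members were 2-fold apart in the diet comparison, Cdk1 higher and Anln and Smc1b lower, against 6.32% of all genes.

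**Figure D2:**
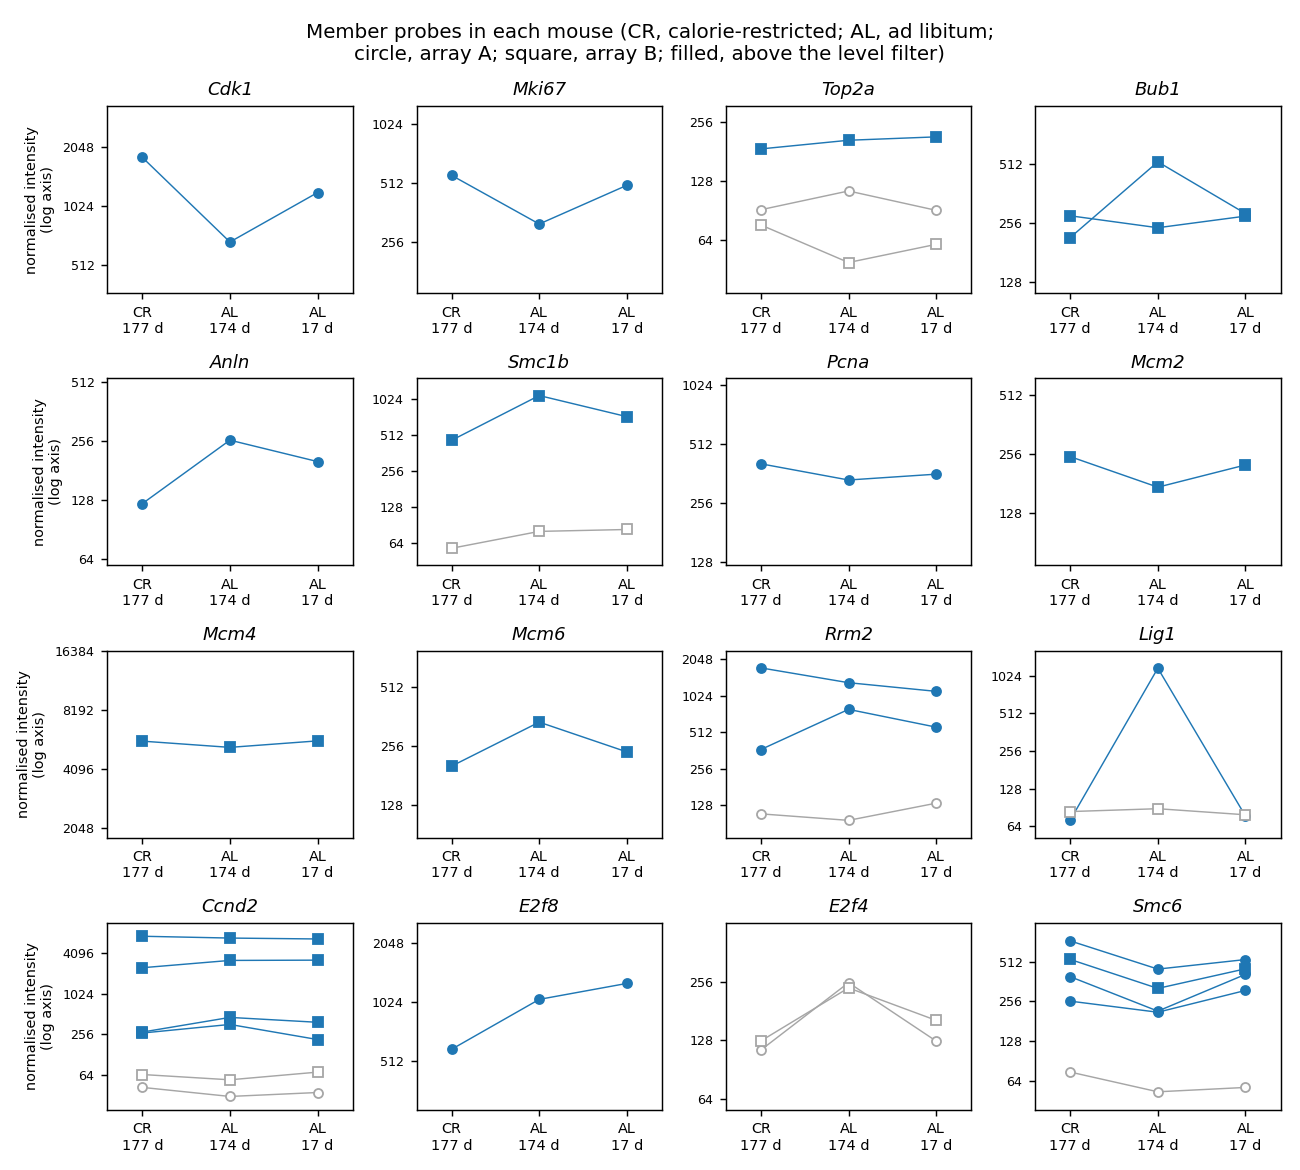
Normalised intensity (vertical axes, log scale, arbitrary units) of the probes of selected member genes in the calorie-restricted 177-day, the ad libitum 174-day and the ad libitum 17-day mouse, from left to right, with 1 panel per gene. Circles are array A, squares array B, and filled symbols lay above the level limit; Cdk1 stands at 1821, 673 and 1203, and only 1 of the Lig1 probes has a 174-day spot apart from the rest.

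S phase genes did not share a direction in the diet comparison: 8 were above 0 and 11 below, with a median of -0.09. Among the MCM helicase subunits, which unwind DNA at the replication fork, Mcm2 had levels of 247 in the restricted, 172 in the 174-day and 224 in the 17-day mouse (0.52). Mcm3 had 645, 527 and 594 (0.29), and Mcm4 had 5669, 5268 and 5686 (0.11, but -0.76 with median centring). Mcm6 ran the other way with 201, 338 and 238 (-0.75), and with the position correction it stood at -0.27. The helicase is built from these proteins together, and its subunits lay on both sides of 0. Mcm5, at 75.4, 91.0 and 96.8, and Mcm7, at 110.5, 131 and 123, were below the level limit. Mcm9, a related helicase subunit known from recombination repair, had 1475, 954 and 1157 (0.63, and -0.001 with median centring). Mcm10, which helps to start the fork, had 382, 278 and 420.1 (0.46, but -0.27 with the position correction).

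The sliding clamp Pcna, which tethers DNA polymerases, had levels of 405 in the restricted, 335 in the 174-day and 359 in the 17-day mouse, a diet difference of 0.27 that was -0.22 with the position correction. The 3 clamp loader subunits that entered were lower in the restricted mouse. Rfc2 had 1227, 1896 and 1723 (-0.63), Rfc3 had 192, 209 and 314 (-0.12), and both probes of Rfc1 were below 0, with 547, 572 and 656 (-0.07) for the first and 118, 304 and 250.4 (-1.36) for the second. Rfc5, whose 2 probes were too dim to enter, was higher in the restricted mouse, with 0.89 and 0.72. Pole3, a subunit of DNA polymerase epsilon, had 162, 251 and 194 (-0.63, and -1.07 with the position correction).

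Ribonucleotide reductase, which makes the building blocks of DNA, showed how probes of the same gene could part. The 3 probes of its small subunit Rrm2, all on array A, had diet differences of -1.10, 0.18 and 0.41. Their levels were 368, 791 and 564 for the first, 108, 95.6 and 133 for the second and 1743, 1315 and 1115 for the third, in the restricted, the 174-day and the 17-day mouse. The restricted mouse was thus the lowest with the first probe and the highest with the third. The large subunit Rrm1 had 188, 152 and 162, just below the level limit. Orc2, a subunit of the origin recognition complex, likewise had probes at 1.14, 0.20 and -0.40.

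Mitotic genes had a diet median of 0.06, with 10 above 0 and 9 below. Mki67, the source of the Ki-67 proliferation antigen, had levels of 559 in the restricted, 315 in the 174-day and 497 in the 17-day mouse. Its difference of 0.83 missed the 2-fold limit and was 0.43 with the position correction. Top2a, the topoisomerase that untangles chromosomes, had 186, 206 and 214 with the probe that entered (-0.15), and -0.32 and 0.64 with the 2 dimmer ones. The A-type cyclin Ccna2 was dim with all 3 probes, at 47.8, 42.2 and 29.9, at 33.6, 29.9 and 36.6, and at 77.7, 67.4 and 76.6, with diet differences of 0.17 to 0.21. Among mitotic genes that entered, Cdk1 and Mki67 were farthest above 0, and the next was Bub3 at 0.65.

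Checkpoint and kinetochore genes split as well. Bub3, a spindle checkpoint protein, had 339, 431 and 456 with the first probe (-0.35), 390.4, 231 and 243 with the second (0.76) and 834, 531 and 638 with the third (0.65). Bub1, the checkpoint kinase, had 215, 523 and 285 (-1.28) with 1 probe and 277, 241 and 276 (0.20) with the other. Cdc26, a subunit of the anaphase-promoting complex, had 532, 869 and 655 (-0.71), and the centromere protein gene Cenpi had 173, 259 and 190.0 (-0.59). The Cenpi probe passed the level limit only through its 174-day spot, where it was high. Other mitotic kinase genes were below the level limit: Plk1 had 84.3, 86.4 and 118, Aurka had 118, 127 and 96.3, and Aurkb had 62.6, 37.4 and 39.7. Cenpu, a centromere protein gene also below the limit, had 113 in the restricted mouse against 52.0 in the 174-day and 96.7 in the 17-day mouse (1.13).

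Of the 5 genes of G1 and the E2F family that entered, 4 were below 0 in the diet comparison and the median was -0.39. Of all 3865 genes, 2035 were below 0 in this comparison. E2f8, an atypical E2F that represses E2F targets, had levels of 589.7 in the restricted, 1060.1 in the 174-day and 1279 in the 17-day mouse (-0.85, and -0.16 with the position correction). Its close relative E2f7 had 682, 623 and 689.6 (0.13). The cyclin Ccnd2 had a median of -0.39 over 4 entering probes, but its 6 probes split into 3 above and 3 below 0, from -0.73 to 0.45 with a median of -0.14. E2f4, an E2F that works mainly as a repressor in resting cells, was below the level limit with both probes but similar with each. The array A probe had 114 in the restricted, 253 in the 174-day and 127 in the 17-day mouse, and the array B probe had 127, 238 and 162. The diet differences were -1.14 and -0.90, and -1.03 and -1.25 with the position correction, and with both probes the 174-day mouse was the highest. The G1 kinase Cdk4 had probes at 149, 115 and 153 (0.37) and at 80.9, 133 and 111 (-0.72). Ccne1, the cyclin that brings cells into S phase, was at the floor in the restricted and the 17-day mouse and had 57.2 in the 174-day mouse.

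In the diet comparison the gene with the most probes that ran one way was Smc6, part of the SMC5/6 complex of DNA repair. Its 4 entering probes had levels of 737, 395, 257 and 533 in the restricted mouse, against 451, 216, 212 and 322 in the 174-day mouse, and 532, 411, 310.3 and 453 in the 17-day mouse. All 5 probes, the dim one included, were higher in the restricted than in the 174-day mouse, by 0.28 to 0.87. With the position correction they ran from -0.32 to 0.67, so 1 of the probes changed sides. Plk5, a polo-like kinase gene, had 651, 375 and 441 (0.80), and the cohesin subunit Smc3 had 1701, 1316 and 1422 (0.37, but -0.42 with median centring). Among genes matched by name, the kinase co-chaperone Cdc37 was farthest below 0, with 157 in the restricted, 287 in the 174-day and 291 in the 17-day mouse (-0.87, and -0.25 with the position correction).

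**Figure D3:**
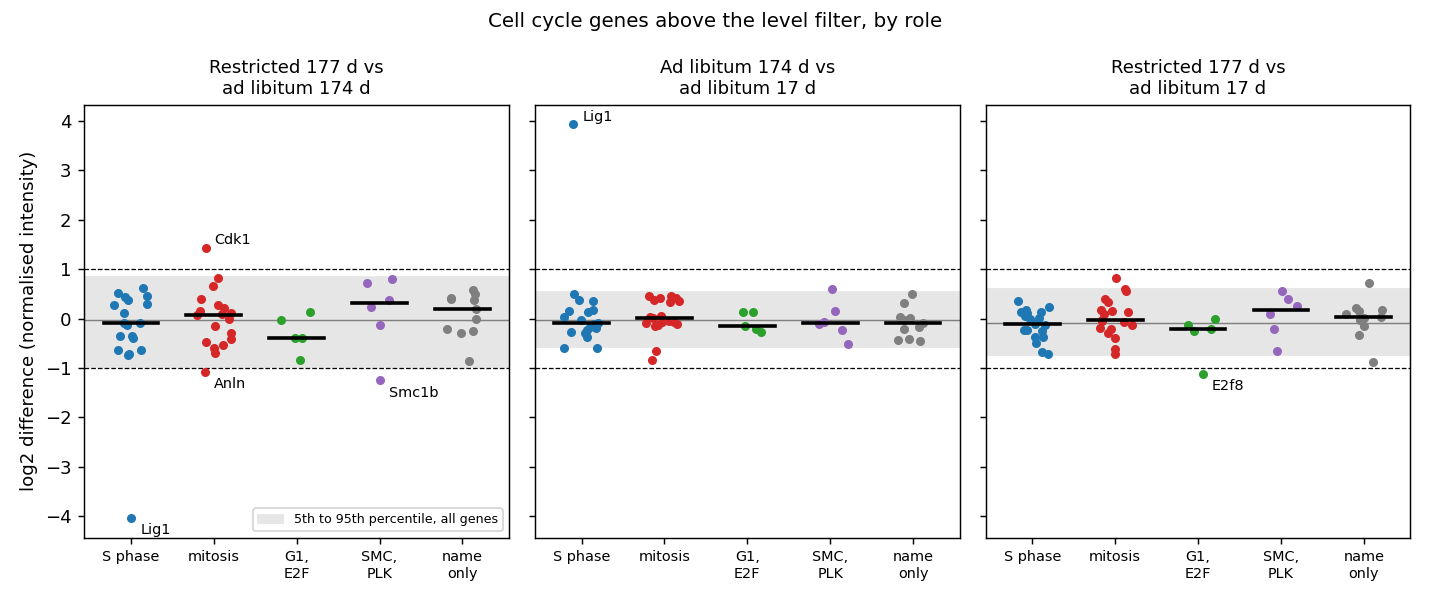
Log2 difference of each of the 60 entering member genes (vertical axis) by role (horizontal axis), in 3 panels for the restricted against the 174-day mouse, the 174-day against the 17-day mouse, and the restricted against the 17-day mouse. Black bars are medians of a role, dashed lines mark 2-fold, and the grey line is the median of all genes. The grey band spans the 5th to the 95th percentile of all 3865 genes (-0.98 to 0.84, -0.58 to 0.53 and -0.74 to 0.61), and member genes lie on both sides of 0 in most groups.

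The age comparison set the ad libitum 174-day mouse against the ad libitum 17-day mouse and asks how these transcripts differ between a mature and a growing liver. Of the 60 genes, 1 was at least 2-fold higher in the 174-day mouse and 0 were at least 2-fold lower, where 0.724% of all genes were higher, 0.44% were lower and 1.16% were 2-fold apart either way. The single gene was Lig1 at 3.93, which entered only through the array A spot described above, and its array B probe gave 0.16. Without spots that stood apart in 1 mouse, 0 of 59 members were 2-fold apart, against 0.65% of all genes. The median of the 60 genes was -0.07, with 26 above 0 and 34 below, against -0.03 for all genes. S phase genes had a median of -0.10 (8 above and 11 below) and mitotic genes one of 0.01 (10 above and 9 below).

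Single genes known from proliferation lay on both sides of 0 in the age comparison, and of all 3865 genes 2067 lay below it. The log2 difference was -0.84 for Cdk1 and -0.66 for Mki67, and over 11 settings each they ranged from -0.84 to -0.49 and from -0.79 to -0.52. Both genes had a single probe, so most of these settings could not change their values. Mcm10 gave -0.60, Mcm2 gave -0.38, Mcm3 gave -0.17 and Pcna gave -0.10, which turned to 0.12 with the position correction. Mcm6 was higher in the 174-day mouse, at 0.51, as were Anln (0.36) and Rrm2 (0.36), though the dim Rrm2 probe gave -0.47. Bub1 had a median of 0.34, but its 2 entering probes parted, at 0.88 and -0.20. Rfc3, a clamp loader subunit, was lower at -0.59. The same 174-day arrays stand on the other side of the diet comparison, so genes high in one are prone to be low in the other, and the 2 comparisons are not independent.

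Among the 10 member genes with at least 2 entering probes, Bub1, Ccnd2 and Rfc1 had these on both sides of 0 in the age comparison. The others had all of these on the same side, a share that was not counted over all genes. The 5 Smc6 probes were all lower in the 174-day mouse, by -0.93 to -0.11. The Orc2 probes that entered were at -0.44 and -0.01, with levels of 405 and 1349 in the 174-day mouse, against 550.2 and 1356 in the 17-day mouse. With the position correction these Orc2 probes lay on both sides of 0, at -0.10 and 0.14. The levels of Pole4, a further polymerase epsilon subunit, were 473 and 627 in the 174-day mouse, against 561 and 782 in the 17-day mouse (-0.25 and -0.32). The 3 Bub3 probes gave -0.08, -0.07 and -0.26. Higher with both entering probes were Rrm2 (0.49 and 0.24), the phosphatase gene Cdc14b, with 265 and 319 in the 174-day mouse against 206 and 243 in the 17-day mouse (0.37 and 0.39), and Cenpo, with 184 and 741 against 176 and 721 (0.06 and 0.04). The dim probes of Rrm2 (-0.47) and Cdc14b (-1.40, with the 174-day mouse at the floor) ran the other way. With the position correction the Cenpo probes lay at -0.15 and 0.05.

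Others farthest from 0 in the age comparison were Smc1b (0.59), the transcription elongation kinase gene Cdk9, with 329 in the 174-day and 234 in the 17-day mouse (0.49), Cenpi (0.45), and the phosphatase gene Cdc25c, which activates Cdk1, with 254 and 185 (0.45). The Cenpi value rests on the 174-day spot that let its probe enter. The Mediator kinase gene Cdk19 had 357 in the 174-day and 488 in the 17-day mouse (-0.45). All of these stood below the 2-fold limit. The E2f4 probes, below the level limit, were higher in the 174-day mouse by 0.99 and 0.55.

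The third comparison set the restricted 177-day mouse against the ad libitum 17-day mouse, the pair with arrays of nearly equal median intensity, and differs in both diet and age. It shares the restricted arrays with the diet and the 17-day arrays with the age comparison, so it is independent of neither. Of the 60 genes, 0 were at least 2-fold higher and 1 was at least 2-fold lower, where 0.466% of all genes were higher, 1.11% were lower and 1.58% were 2-fold apart either way. The gene was E2f8, with 589.7 in the restricted and 1279 in the 17-day mouse, a log2 difference of -1.12 that was -0.96 with median centring and -0.68 with the position correction. The median of the 60 genes was -0.02, with 28 above 0 and 32 below, against -0.09 for all genes. S phase genes had a median of -0.11 and mitotic genes one of -0.03, and all 5 genes of G1 and the E2F family were below 0. Of all 3865 genes, 2273 lay below 0 here. E2f7, at -0.02, was at 0.05 with the position correction. With every probe counted, 3 of the 11 genes of G1 and the E2F family were above 0 and 7 below.

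Mki67 and Cdk1 parted here in the size of the difference. Cdk1 was at 0.60 and ranged from 0.49 to 0.82 over 11 settings, while Mki67 was at 0.17 and ranged from -0.36 to 0.24. Most of these settings could not change the value of a gene with a single probe. Mcm4 was at 0.00, Mcm2 at 0.14, Mcm3 at 0.12 and Pcna at 0.18. Farthest above 0 was Cenpa, the centromeric histone H3 variant, whose array B probe had 416 in the restricted and 236 in the 17-day mouse (0.82). Its array A probe was at the floor in both. Next came the splicing factor gene Cdc5l, with 814 and 498 (0.71, and 0.19 with the position correction), whose dimmer probe gave -0.30. After Cdk1 followed Plk5 (0.56) and Cdc25c (0.55). Plk4, the kinase of centriole duplication, had 596 in the restricted and 451 in the 17-day mouse (0.40).

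On the lower side stood Cdc37 (-0.89), Anln (-0.71), Rfc3 (-0.71), Rfc1 (-0.67) and Smc1b (-0.66) after E2f8. Both Rfc1 probes were lower in the restricted mouse, by -1.08 and -0.26. Bub1b, a spindle checkpoint kinase gene, had 659 in the restricted and 1010.2 in the 17-day mouse (-0.62). No S phase gene reached a 2-fold difference, and the 19 ranged from -0.71 to 0.35.

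How far a difference can be read is shown by genes with several probes. Over all named genes with at least 2 entering probes, 557 in number, the pooled SD between probes of the same gene was 0.582 for the diet, 0.448 for the age and 0.398 for the restricted against 17-day difference. The SD between the 60 member genes was 0.73, 0.60 and 0.38, and between all genes 0.587, 0.416 and 0.418. The member values for diet and age include Lig1, at -4.04 and 3.93, which entered through a single spot. The SD without Lig1 was not computed, so a wider spread of the members cannot be read from these values. The median size of a member's difference, sign aside, was 0.39, 0.19 and 0.21, against 0.37, 0.21 and 0.28 over all genes. A median size and an SD are unlike measures, so the median sizes are not set against the SD between probes. For the 10 member genes with at least 2 entering probes, the pooled SD between probes was 0.696, 0.310 and 0.574. The spread between probes holds differences between probes and spots and no difference between animals.

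Counting every probe above or below 0, all probes of a gene lay on the same side in 14 of 32 member genes in the diet comparison (43.8%), against 44.1% of 1791 genes in all. The counts were 14 of 32 (43.8%, against 44.7%) for age and 13 of 31 (41.9%, against 44.3%) for the restricted against the 17-day mouse. Of the 14 genes in the diet comparison, 3 were higher and 11 lower in the restricted mouse. For age the split was 7 higher and 7 lower, and in the last comparison 2 higher and 11 lower. The direction of such genes was not counted over all genes, so these splits have no background to be read against. The median distance between the lowest and highest probe of a member gene was 1.06 in the diet, 0.66 in the age and 0.53 in the last comparison. Over all genes it was 0.66, 0.48 and 0.44. Smc4, a condensin subunit, had the widest span in the diet comparison after Lig1: its 2 dim probes gave 1.89 and -1.44, the first with the 174-day mouse at the floor and the second with the 17-day mouse at it, while the bright one gave 0.06.

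**Figure D4:**
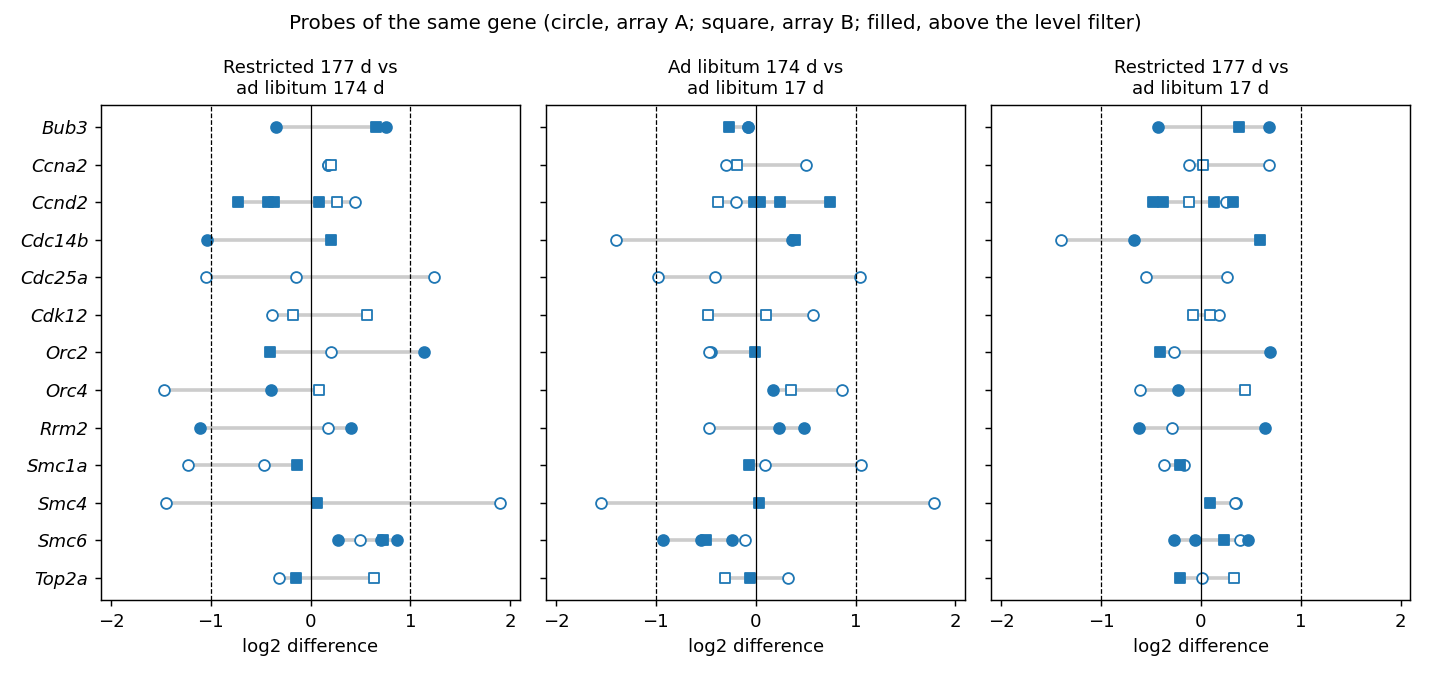
Log2 difference (horizontal axis) of each probe of selected member genes with several probes (vertical axis), in 3 panels for the restricted against the 174-day mouse, the 174-day against the 17-day mouse, and the restricted against the 17-day mouse. Circles are array A, squares array B, and filled symbols lay above the level limit; the Smc6 probes all lie above 0 in the first panel (0.28 to 0.87), while those of Rrm2 and Orc2 lie on both sides.

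Asked which mouse was highest and which lowest, the 60 member genes gave no mouse most of the high values. The restricted mouse was the highest for 24 genes, the 174-day mouse for 18 and the 17-day mouse for 18, or 40.0%, 30.0% and 30.0% against 34.4%, 35.5% and 30.2% of all genes. The restricted mouse was the lowest for 28 genes (46.7%), the 174-day mouse for 21 (35.0%) and the 17-day mouse for 11 (18.3%), against 45.9%, 36.5% and 17.6% of all genes. The members' shares of lowest values were near those of all genes. With every probe counted, without a level limit, 6 of 108 genes were at least 2-fold apart in the diet comparison (5.56%, against 7.44% of 7151 genes, 3.06% higher and 4.38% lower): Cdk1 and Cenpu higher, and Anln, Cdc73, E2f4 and Lig1 lower. In the age comparison it was 1 (0.926%, against 3.22%, of which 1.96% higher and 1.26% lower), Lig1, which was higher. In the last comparison it was 1 (0.926%, against 1.13%, of which 0.378% higher and 0.755% lower), E2f8, which was lower.

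The other genes of the pathway, those of the same steps that the symbol rule does not take, were read alongside. Of these, 78 had a probe and 42 entered. In the diet comparison 20 were above 0 and 22 below, with a median of -0.01. Of the 42, 1 was 2-fold higher, the Cdk inhibitor gene Cdkn1c, with 1159 in the restricted, 397 in the 174-day and 651 in the 17-day mouse (1.55, and 0.88 with the position correction). The histone variant gene H2az1 was 2-fold lower with the 1 probe that entered, at 87.9, 1924 and 119 (-4.45), a probe that passed the level limit through its high 174-day spot. Over all 4 of its probes the median was -0.56, and its age difference was 4.02 with the entering probe and 0.49 with all 4. Nusap1, a spindle protein gene, stood at 0.98 in the diet and -0.58 in the age comparison, and Ccnf, a cyclin of a ubiquitin ligase, at -0.98 and 0.86 over 2 probes. Foxm1, the transcription factor of mitotic genes, had 510.2, 453 and 517 (0.17). The medians of the 42 genes were -0.04 for age, with 18 above 0 and 24 below, and -0.03 for the restricted against the 17-day mouse, where Spc24, a kinetochore gene, was 2-fold higher (1.06).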

How the data were processed

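Liver RNA of 3 mice was measured on 6 arrays. The deposited values are spot intensities on a linear scale, read as such from the values; the authors' steps before deposit (label, scanner, background, scaling) are not given in the sources used here. Array number limits the precision. Probes were named through GEO's platform annotation: of 16896 spots, 9663 had 1 symbol, 436 several and 6797 none, and 9641 matched RefSeq (GRCm38.p6) with 0 symbols changed. Values were floored at the 5th percentile per array, log2-transformed and quantile-normalised over the 3 arrays of a kind. Probes above the 50th percentile of mean level entered, a gene took the median of its entering probes (3865 genes), and a log2 difference of 1 counted as 2-fold. With 1 mouse per group no test was possible. The members, gene lists and settings were chosen with earlier results of these data known. Full values are given for the 6 highest and 6 lowest member genes per comparison, genes with at least 2 entering probes on 1 side, and a fixed list of common cell cycle markers; Ccnb1 and Ccnd1 of that list were not analysed here. Cenpu, Cdc73, E2f4, Rfc5, Smc4 and others outside these were named after their values were seen. Alternatives were median centring, loess (span 0.3), no level limit, the top 25% of probes, the brightest probe, each array alone, a 25th-percentile floor, spots of exactly 10 left out, spots 1.5 log2 from both other mice left out, a 1.5-fold limit, and a correction that removed median deviations of blocks of 528 consecutive spots, whose length came from earlier processing. After the blocks, that correction also removed the median deviation of each place within a block, taken over the blocks of an array. The procedure was tested on simulated data, with planted differences well above the 2-fold limit and noise below the spread between probes seen here. That test therefore does not bear on differences near the limit. Scripts used matplotlib 3.10.9, statsmodels 0.14.6, scipy 1.17.1, pandas 2.3.3 and numpy 2.4.6 under Python 3.11.15; 0 columns of values were left unused.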

Additional observations from a re-analysis of the deposited data

How the results depend on the processing

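Of the values for single member genes under the alternatives, 551 moved by less than the spread between probes of the same gene in the diet comparison and 23 by more. The counts were 568 and 6 for age, and 551 and 23 for the restricted against the 17-day mouse. Many of these values could not move, since settings that only change the choice of probes leave a gene with a single probe as it was. The counts are therefore no measure of how stable the values are. No called value changed sign. The median of all members ranged from -0.17 to 0.11 for the diet and from -0.11 to 0.18 for age, so its sign depends on the setting in both, and from -0.07 to 0 for the restricted against the 17-day mouse. The age median was 0.18 with median centring, which moved the median of all genes to 0.21 there, to -0.31 in the diet and to -0.16 in the last comparison, and the age median of the mitotic genes was -0.13 with the top 25% of probes. The count of members 2-fold apart in the diet comparison was 2 of 29 with the top 25% of probes (4.57% of all genes there), 1 of 37 on array B alone (6.84%) and 17 of 60 at 1.5-fold (28.5%). For age it was 2 with median centring (1.94% of all genes), 6 at 1.5-fold (8.62%), and 0 with the top 25% of probes (0.543%), on array B alone (0.665%) and without spots apart in 1 mouse, the setting that leaves out the Lig1 spot (0.65%). For the restricted against the 17-day mouse it was 0 with median centring (1.06% of all genes), on array B alone (0.522%) and with the position correction (1.01%), and 10 at 1.5-fold (15.4%). The lower fold limit, the smaller probe sets and the left-out spot change these counts by construction; for median centring and the position correction the cause was not tested. With the position correction the diet calls were Cdk1 higher and Lig1 and Pole3 lower. No paired analysis was possible because each group holds 1 mouse, and for the same reason neither a replicate nor a slide could be left out or fitted as a block. Whether background was subtracted is unknown, which limits the folds of dim probes in either direction.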
